A study of Solanum lycopersicum with 36 samples.

Results

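The 100 tomato genes described here were on in the shoots of the *sdg33* and *sdg34* mutants and low in the shoots of wild type (WT). They were chosen by their measured values. For each of the 35872 genes and miRNA loci listed, the highest log2(value + 1) of the 6 WT shoot libraries was subtracted from the lowest of the 12 mutant shoot libraries, and the 100 with the largest difference, called the gap, were taken. A gap above 0 means that every mutant shoot library was above every WT one. The shoot difference between mutants and WT is therefore given as a description, with no test.

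SDG33 and SDG34 are tomato homologs of SDG8 of Arabidopsis, a SET-domain enzyme that methylates lysine 36 of histone H3, a mark found along transcribed genes. *sdg34* and *sdg33* are CRISPR mutants, each studied as 1 line, and WT is the cultivar Castlemart II from which they were made. Plants were grown in hydroponics, starved of N for 2 days, and then kept for 5 h with nitrate and ammonium (+N; 1.2 mM KNO3, 0.8 mM calcium nitrate and 0.2 mM NH4H2PO4) or without N (-N). RNA was sequenced from *sdg34*, *sdg33* and WT, each as shoots and as roots under +N and -N, with 3 libraries in each of the 12 groups and 3 plants pooled in each library. Both mutants were compared with the same WT libraries. The unit is a normalised value, a gene count that the authors brought to the same distribution in all 36 libraries, so every library sums to 19667069 and the number of reads behind a value is unknown. Replicates are separate libraries of pooled plants, and p-values measure the spread between them. In whole shoots or roots, a change in the number of cells of a type and a change in RNA per cell cannot be told apart.

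The targeted genes were measured in every library. SDG34 (Solyc06g059960.3) had 58 to 95 in *sdg34* shoots and 98 to 194 in WT shoots, and 77 to 174 in *sdg34* roots and 130 to 201 in WT roots. SDG33 (Solyc04g057880.3) had 136 to 284 in *sdg33* shoots and 380 to 562 in WT shoots, and 319 to 462 in *sdg33* roots and 392 to 525 in WT roots. The shoot ranges of each gene in its own mutant and in WT did not overlap, whereas the root ranges did. In shoots of the other mutant, SDG33 had 204, 273 and 302 under -N and 322, 342 and 410 under +N in *sdg34*. It thus overlapped with WT only through its highest library. SDG34 had 106 to 176 in *sdg33* shoots, within the range of WT. A lesion made by CRISPR need not lower the RNA of its gene. Of 6 photosystem and light-harvesting genes used as leaf markers, 5 were higher in every shoot library than in any root library, with Solyc01g087040.2 as the exception.

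The gap ran from 5.40 to 1.54 on the log2 scale, with a median of 2.00. The smallest difference between any mutant and any WT shoot was thus 42.4-fold for the first gene, 4.01-fold at the median and 2.90-fold for the last, all on the value + 1 scale. Of the 100, 51 had a gap of at least 2 and 13 of at least 3. In all, 1626 listed genes (4.53%) had a gap above 0, and 1752 (4.88%) had every mutant library below every WT library. The median gene of the 100 had a median of 579 in the mutants and 48.8 in WT. Not all were off in WT: 3 were at 0 in every WT shoot library and 11 were below 10 in all of them, but 40 reached 100 in at least 1 WT library and 4 reached 1000. In every mutant shoot library, 77 were at 100 or more and 26 at 1000 or more.

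**Figure D1:**
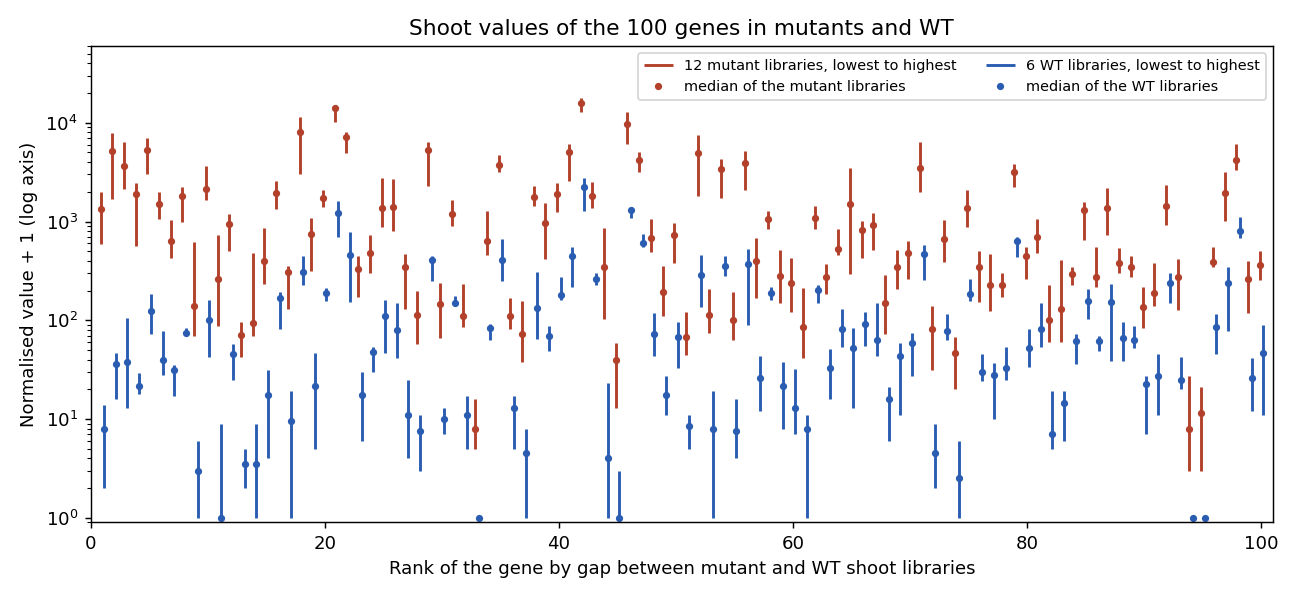
Shoot values of the 100 genes, ordered by gap, as the range (line) and median (point) over the 12 mutant libraries and the 6 WT libraries, on a log axis of normalised value + 1. No mutant range reaches its WT range, which is what the rule asked for, while the level of the mutants differs widely from gene to gene.

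The values just inside and just outside the limit were close. Solyc12g099940.2 (an acyl-CoA N-acyltransferase), Solyc01g005470.3 (PLANT CADMIUM RESISTANCE 2), Solyc01g009430.3, Solyc05g046270.3 and Solyc09g065780.3 (a 3-ketoacyl-CoA synthase of very-long-chain lipid synthesis) were the last 5 taken, with gaps of 1.58, 1.56, 1.55, 1.54 and 1.54. Solyc07g055690.1 (a serine/threonine kinase), Solyc04g063245.1 (a cytochrome P450), Solyc10g086570.3 (a DnaJ chaperone), Solyc02g093750.3 and Solyc06g074800.1 (zinc finger proteins) came next, with gaps of 1.52, 1.51, 1.51, 1.51 and 1.49. At the low end the rule also took genes with little signal. Solyc04g011735.1, Solyc06g065060.1 and Solyc10g018340.1 had 4 to 15, 2 to 26 and 2 to 20 in mutant shoots and were listed at 0 in all WT shoots.

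The largest gap belonged to Solyc04g007000.1, an AP2/B3 transcription factor whose Arabidopsis homolog RAV1 restrains growth. It had 592 to 1974 (median 1336) in mutant shoots and 1 to 13 (median 7) in WT shoots. The second, Solyc03g006490.3, a glutaminase domain protein, had 1694 to 7838 (median 5147) in mutant shoots and 15 to 46 (median 35) in WT shoots. Both genes were far above every WT library in all 12 mutant libraries. Solyc08g079230.1, of the lipid-transfer protein superfamily, had 2113 to 6454 (median 3677) in mutant shoots and 12 to 104 (median 37) in WT shoots. Solyc07g066330.3, a homolog of NAC1, a transcription factor of auxin signalling in Arabidopsis roots, had 564 to 2436 (median 1888) in mutant shoots and 17 to 28 (median 20.5) in WT shoots. Its 3 lowest mutant libraries were the *sdg34* +N ones.

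The genes that followed by gap encode proteins of several kinds. Solyc02g083835.1, a DnaJ-like protein of the class that assists Hsp70 chaperones, had 3048 to 6940 in mutant shoots and 72 to 184 in WT shoots. Solyc12g009880.1, a serine-rich protein, had 1054 to 1972 in mutant shoots and 27 to 76 in WT shoots. Solyc03g044790.3, a methylesterase of the family that frees hormones from their methyl esters, had 430 to 1045 in mutant shoots and 16 to 34 in WT shoots. These genes were expressed in WT, at a low level. Solyc04g076220.3, an AT-hook DNA-binding protein, varied little in WT, with 998 to 2238 in mutant shoots and 70 to 82 in WT shoots. Solyc11g044910.2, a beta-xylosidase that trims cell wall xylan, had 1666 to 3649 in mutant shoots and 41 to 160 in WT shoots. Solyc05g051900.3, a transporter of the major facilitator superfamily, had 500 to 1203 in mutant shoots and 24 to 57 in WT shoots.

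The remaining 5 of the 15 genes of largest gap had at most 30 in any WT shoot. Solyc06g066420.3, a homolog of OXIDATIVE STRESS 3, had 86 to 730 in mutant shoots, against 0 in 5 WT shoots and 8 in the other. Solyc12g056920.2, a sulfate transporter, had 41 to 94 in mutant shoots and 1 to 4 in WT shoots. Solyc06g008620.1, a tolB-like protein, had 234 to 851 in mutant shoots and 3 to 30 in WT shoots. F-box proteins, which choose the targets of ubiquitin ligases, gave a pair: Solyc10g017960.2 had 68 to 622 in mutant shoots and 0 to 5 in WT shoots, and Solyc01g091700.3 had 68 to 484 in mutant shoots and 0 to 8 in WT shoots. Both have the phloem protein PP2-A13 as their Arabidopsis homolog.

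Descriptions in the study's gene lists were found for all 100 genes and Arabidopsis homologs for 95. Besides PP2-A13, AT4G27450 was the homolog of both Solyc03g006490.3 and Solyc02g078500.2, and the DnaJ protein AT4G36040 that of both Solyc02g083835.1 and Solyc04g081530.1. A search of the descriptions for keywords placed 16 genes under transcription factors, 11 under stress or defense, 10 under ubiquitin, 9 each under hormones, transporters, cell wall and kinases or signalling, 4 each under oxidoreductases and lipids, 3 under proteases and 2 under light, some in more than 1 group, and 25 in none. Among the transcription factors, Solyc05g025900.3 and Solyc07g041830.3 matched only through the words damaged DNA-binding. After the RAV1 and NAC1 homologs, Solyc04g076220.3 and Solyc05g052050.1 had the largest gaps of this group. The cell wall group was led by the xylosidase Solyc11g044910.2 and the beta-galactosidase Solyc01g110000.3, which had 2576 to 6076 in mutant shoots and 214 to 556 in WT shoots. Solyc07g055440.2, a cytochrome P450, led the oxidoreductases, with 56 to 198 in mutant shoots and 2 to 10 in WT shoots. The receptor-like protein Solyc03g083480.3 and Solyc08g077730.3, described as a phosphatidylinositol phosphate kinase, led the signalling group, with gaps of 2.39 and 2.34.

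The light group held 2 genes with high values. Solyc09g092110.3, whose Arabidopsis homolog CCR-like encodes an mRNA that is light-regulated and cycles daily, had 3008 to 11547 in mutant shoots and 224 to 445 in WT shoots. Solyc07g043130.3, a homolog of RPT2, which acts in phototropin signalling, had 6090 to 12724 in mutant shoots and 1083 to 1406 in WT shoots. Homologs of circadian clock genes, looked up after the values were seen and only in the study's gene lists, had the opposite order in the same libraries. PRR5 (Solyc03g081240.3) had 189 to 647 in mutant shoots and 4124 to 6222 in WT shoots, and GIGANTEA (Solyc12g056650.2) had 1770 to 4113 in mutant shoots and 6219 to 11966 in WT shoots. The homologs of FKF1, TOC1, LUX and ELF4 were also lower in every mutant shoot library than in any WT one. All 6 found were thus lower. Genes with LHY, CCA1, PRR9, PRR7, ELF3 or PRR3 as their homolog were also looked for, and the lists held none. Since the study chose its lists on these samples, the lower values are not independent evidence of a direction. In roots, mutant and WT values of 5 of the 6 overlapped, and FKF1 was below WT in every mutant library. The mutant root median was below that of WT in all 6, for instance 3462 against 6685 for GIGANTEA and 496 against 578.5 for PRR5. Their part in the shoot values of the 100 genes was not tested.

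Gene identifiers give the chromosome and the order of the genes along it, and no coordinates were used. The 100 genes were spread over all 12 chromosomes, with 1 on unplaced sequence. Chromosome 5 held the most, 13 of 100 with 7.07% of the listed gene models, and chromosome 11 the fewest, 3 with 6.82%. In identifier order, 8 of the 100 lay directly next to another member, in 3 runs. Counting places in identifier order, 16 of the 100 formed 7 runs in which members followed each other by at most 5 places, while 84 had no other member that near. With the same rule, the 100 genes of the largest opposite gap in shoots (WT above mutants) formed 6 runs with 12 genes, and the 100 genes of the largest gap in roots formed 8 runs with 21 genes. These lists were also chosen by gap. Runs among genes taken without regard to the gap were not counted, and whether the members lie closer together than such genes was not tested.

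**Figure D2:**
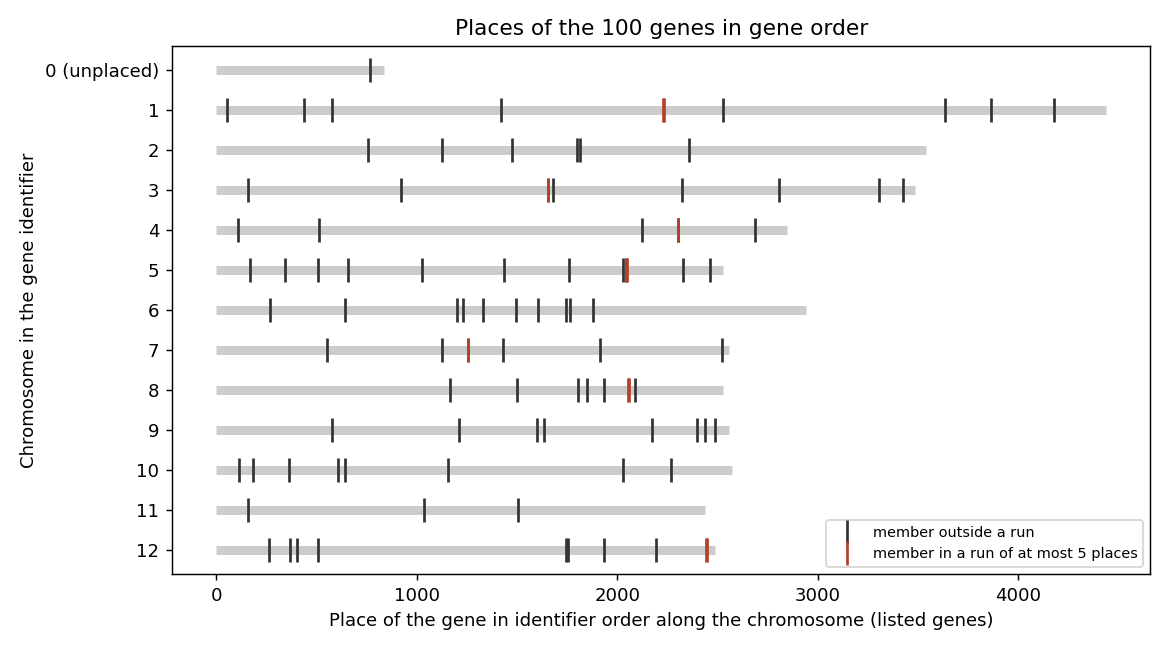
Place of the 100 genes in identifier order along each chromosome (x axis, counted in listed genes), with the 16 genes in 7 runs in red and the other 84 in black. The genes are found along all chromosomes, and chromosome 5 carries 13 of them.

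Of the runs, 3 had no gene between their members. On chromosome 5, the ethylene response factor genes Solyc05g052030.1, Solyc05g052040.1 and Solyc05g052050.1 (Pti4, a transcription factor of ethylene and defense signalling) followed each other directly. They had 3166 to 4750, 514 to 1228 and 797 to 2718 in mutant shoots, against 246 to 658, 42 to 147 and 40 to 150 in WT shoots. All 3 were thus well above WT in every mutant library, at different levels. On chromosome 4, Solyc04g077840.2 (F-box), Solyc04g077850.3 (U-box) and Solyc04g077860.3 (a hydrolase), with no shared description, had 80 to 166, 479 to 1069 and 886 to 2764 in mutant shoots, against 4 to 16, 52 to 150 and 46 to 158 in WT shoots. On chromosome 3, Solyc03g083480.3 and Solyc03g083490.3 (DUF1442) had 130 to 468 and 12 to 58 in mutant shoots, against 3 to 24 and 0 to 2 in WT shoots.

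The subtilisin-like protease genes Solyc01g087770.3 and Solyc01g087800.2 on chromosome 1 spanned 6 listed genes. They had 215 to 550 and 1805 to 7538 in mutant shoots, against 48 to 68 and 136 to 454 in WT shoots. Of the 4 genes between them, 3 also had a gap above 0: Solyc01g087775.1, another subtilisin-like protease, had 125 to 324 in mutant shoots and 34 to 56 in WT shoots, and Solyc01g087780.2 and Solyc01g087790.2 had gaps of 0.71 and 0.14. The next gene, Solyc01g087810.2, also a subtilisin-like protease, had 123 to 1067 in mutant shoots and 10 to 46 in WT shoots. Genes of 1 family can share reads in counting, and the sequences of these proteases, and of the lipid-transfer genes on chromosome 8, were not compared here.

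In the other runs the genes in between did not separate. Solyc08g078870.2 and Solyc08g078890.2 on chromosome 8, of the lipid-transfer protein superfamily, had 2066 to 5162 and 724 to 2178 in mutant shoots, against 88 to 524 and 38 to 232 in WT shoots, and Solyc08g078880.3 between them had at most 15 in any shoot. On chromosome 7, the RPT2 homolog Solyc07g043130.3 and the glycosyltransferase Solyc07g043150.1 (172 to 301 in mutant shoots, 24 to 52 in WT shoots) had genes of at most 24 between them. On chromosome 12, Solyc12g099940.2 had 342 to 556 in mutant shoots and 44 to 114 in WT shoots, and Solyc12g099970.2, a regulatory subunit of the energy-sensing SnRK1 kinase, had 1744 to 4304 in mutant shoots and 282 to 442 in WT shoots. Solyc12g099960.1 between them overlapped, with 291 to 965 in mutant shoots and 65 to 318 in WT shoots.

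Direct neighbours that were not members numbered 189. Of these, 25 (13.2%) had a gap above 0, where 4.54% of all gene models did, and 7 (3.70%) had every mutant library below WT, where 4.88% of all genes did. Some of these neighbours had large values. Solyc10g080620.1, next to the F-box/kelch gene Solyc10g080610.1, had 425 to 1458 in mutant shoots and 82 to 172 in WT shoots. Solyc10g083950.1, next to Solyc10g083940.1, had 224 to 374 in mutant shoots and 50 to 96 in WT shoots. These neighbours were named after their values were seen, and 124 of the 189 reached 10 in at least 3 shoot libraries.

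Roots gave measurements that the rule had not used. There, 90 of the 100 genes passed the filter on low values in each comparison of a mutant with WT, 89 of them in both comparisons, and 8 genes were below 10 in every root library. With limma's moderated test and Benjamini-Hochberg adjustment over all genes tested, 61 of 90 were higher in *sdg33* roots than in WT roots (26.4% of all genes tested were) and 10 were lower (28.7% of all). In *sdg34* roots 56 of 90 were higher than in WT (24.4% of all) and 10 were lower (27.7% of all). The median log2 fold change was 0.73 in *sdg33* and 0.63 in *sdg34*, where that of all genes tested was -0.01 and -0.02. Both comparisons use the same 6 WT root libraries. Some genes passed the filter only through mutant libraries, such as Solyc03g123460.3 and Solyc10g006150.3, with 0 to 8 and 0 to 3 in WT roots. Such genes could hardly come out as lower, and how many of the 90 they were was not counted. With a filter of 10 in every library of the fit, the counts stayed within 1.5 times. Past a log2 fold change of 2, 16 genes were higher in *sdg33* (1.5% of all) and 11 in *sdg34* (1.12% of all), and 0 were lower by as much in either mutant (0.574% of all in *sdg33*, 0.396% in *sdg34*).

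**Figure D3:**
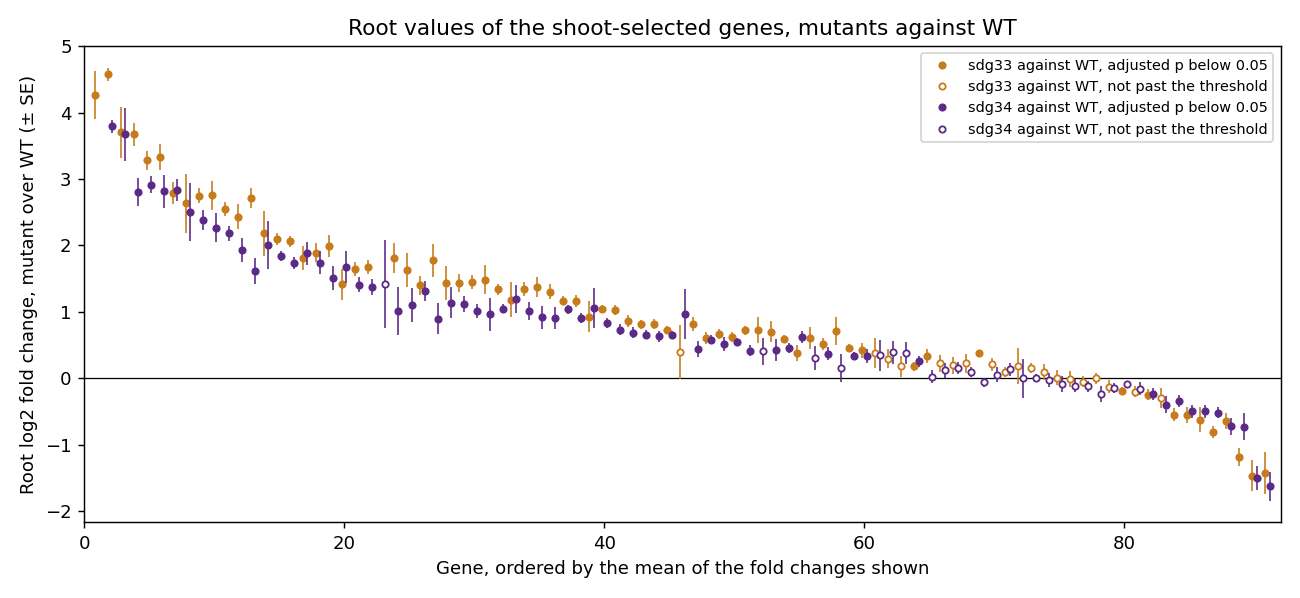
Root log2 fold change over WT with its standard error for the genes tested in *sdg33* (orange) or *sdg34* (purple), ordered by the mean of the fold changes shown, with filled points where the adjusted p is below 0.05. Most points lie above 0, and 61 of 90 genes passed the threshold as higher in *sdg33* and 56 of 90 in *sdg34*. Below 0 lie 16 points of *sdg33* and 21 of *sdg34*, 10 of which passed as lower in each.

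The largest root change was that of Solyc10g008400.1, a homolog of RMA1, a RING ubiquitin ligase of the endoplasmic reticulum. It had 5433, 5782 and 8079 in *sdg34* +N roots, 306, 396 and 404 in *sdg34* -N roots, 6015, 6440 and 6986 in *sdg33* +N roots and 795, 1120 and 1344 in *sdg33* -N roots, against a median of 111 and a highest value of 120 in WT +N roots and 104, 106 and 114 in WT -N roots. Every mutant root was above every WT root, and both mutants had higher values under +N. The log2 fold change over WT was 4.57 ± 0.10 (SE) in *sdg33* (adjusted p = 1.7e-12) and 3.79 ± 0.10 in *sdg34* (adjusted p = 2.6e-11).

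Solyc03g006490.3, the glutaminase domain gene, had 1292, 1445 and 2958 in *sdg34* +N roots, 294, 311 and 350 in *sdg34* -N roots, 2165, 2444 and 3888 in *sdg33* +N roots and 586, 708 and 768 in *sdg33* -N roots, against 65 to 151 in the 6 WT roots. Its log2 fold change was 3.67 ± 0.18 in *sdg33* (adjusted p = 1.6e-09) and 2.80 ± 0.21 in *sdg34* (adjusted p = 1.6e-07). Solyc01g107100.3, described as a beta-1,4-xylosidase, was a root-rich gene, with 1208 to 11017 in mutant roots and 476 to 557 in WT roots, although its shoot values were only 110 to 356 in the mutants and 10 to 26 in WT. It rose by 3.28 ± 0.14 in *sdg33* roots (adjusted p = 6.8e-10) and by 2.91 ± 0.13 in *sdg34* roots (adjusted p = 1.3e-09). In these 3 genes all mutant roots lay above all WT roots.

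Of the other genes with the largest root changes, Solyc10g006150.3 (DUF4408) had 6 to 88 in mutant roots and 0 to 3 in WT roots. Its log2 fold changes of 3.70 ± 0.39 in *sdg33* and 3.67 ± 0.40 in *sdg34* rest on WT values near 0. It passed the filter only through mutant libraries, so it could hardly come out as lower. The DnaJ gene Solyc04g081530.1 had 48 to 662 in mutant roots and 11 to 28 in WT roots, with log2 fold changes of 3.33 ± 0.19 in *sdg33* (adjusted p = 1.0e-08) and 2.81 ± 0.25 in *sdg34* (adjusted p = 9.4e-07). The serine-rich protein gene Solyc12g009880.1 had 674 to 3187 in mutant roots and 128 to 312 in WT roots, with changes of 2.79 ± 0.16 in *sdg33* and 2.83 ± 0.16 in *sdg34* (adjusted p = 1.0e-08 and 1.9e-08). In 29 of the 100 genes every mutant root library was above every WT one (2.72% of all listed genes, a base that includes genes with little or no signal). The same rule run on roots shared 8 of its 100 genes with the shoot list, each list being 100 of the 35872 listed genes. The 8 shared genes were Solyc10g008400.1, Solyc03g006490.3, Solyc01g107100.3, Solyc12g009880.1, Solyc10g080610.1, Solyc07g041830.3, Solyc05g025900.3 and Solyc02g062890.2. Solyc10g080610.1, a homolog of a kelch F-box protein that in Arabidopsis marks the entry enzyme of phenylpropanoid synthesis for degradation, had 3773 to 10014 in mutant roots and 935 to 1514 in WT roots. Solyc02g062890.2, a polyol and monosaccharide transporter, had 496 to 1258 in mutant roots and 142 to 229 in WT roots.

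A smaller set went the opposite way in roots. Solyc09g089930.2, the ethylene response factor E.2, had 12 to 46 in mutant roots and 27 to 226 in WT roots, although its shoot values were 102 to 857 in the mutants and 0 to 22 in WT. Its root log2 fold change was -1.42 ± 0.32 in *sdg33* (adjusted p = 0.0018) and -1.63 ± 0.21 in *sdg34* (adjusted p = 3.0e-05), but with +N libraries alone it was -0.26 and -0.49 and not past the threshold. Under -N the WT roots had 102, 155 and 226. Solyc03g083490.3, the DUF1442 gene, had 9 to 34 in mutant roots and 38 to 65 in WT roots, with changes of -1.47 ± 0.23 in *sdg33* (adjusted p = 0.00012) and -1.50 ± 0.19 in *sdg34* (adjusted p = 2.0e-05). Its roots did not overlap, the reverse of its shoots.

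The leucine-rich-repeat receptor-like gene Solyc12g009520.2 had 408 to 688 in mutant roots and 775 to 1040 in WT roots. With Solyc03g083490.3 it was 1 of 2 genes with every mutant root below every WT root (2.73% of all listed genes). The F-box gene Solyc04g077840.2 had 43 to 236 in mutant roots and 120 to 182 in WT roots, with changes of -1.19 ± 0.14 in *sdg33* and -0.73 ± 0.21 in *sdg34* (adjusted p = 7.5e-06 and 0.0095), and with -N libraries alone the value in *sdg34* was -0.15 and not past the threshold. Its 2 neighbours in the chromosome 4 run went up in roots, Solyc04g077860.3 by 1.40 ± 0.14 in *sdg33* and 1.31 ± 0.15 in *sdg34* and Solyc04g077850.3 by 0.51 ± 0.09 and 0.37 ± 0.10. Solyc02g078660.3, a hydroxyproline-rich glycoprotein of the cell wall, and Solyc09g097960.3, an oxidoreductase, had changes of -0.64 ± 0.12 and -0.62 ± 0.18 in *sdg33* and of -0.73 ± 0.13 and -0.50 ± 0.10 in *sdg34*. With +N libraries alone neither gene passed the threshold in either mutant.

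By keyword, and with no test between groups, 8 of 9 ubiquitin genes tested in roots were higher and 1 lower in each mutant. Of the 90 members tested, 61 were higher in *sdg33* and 56 in *sdg34*, and 10 lower in each. Of all genes tested, 26.4% and 24.4% were higher in *sdg33* and *sdg34*, and 28.7% and 27.7% lower. Of 9 cell wall genes, 6 were higher and 1 lower in each mutant, and of 14 transcription factor genes 8 were higher and 2 lower in each. Of 9 kinase or signalling genes, 6 were higher and 1 lower in each, and of 10 stress or defense genes 6 were higher in each and 1 lower in *sdg33* and 2 in *sdg34*. Of 8 transporter genes, 5 were higher in *sdg33* and 3 in *sdg34*, with none lower. Of 9 hormone genes, 3 were higher and 2 lower in each. The oxidoreductase, lipid, light and protease groups had at most 4 genes tested. Of the ethylene response factors of the chromosome 5 run, Solyc05g052030.1 rose by 0.72 ± 0.07 in *sdg33* and 0.42 ± 0.08 in roots of *sdg34*, and Solyc05g052040.1 (0.21 ± 0.10 and 0.05 ± 0.11) and Solyc05g052050.1 (0.00 ± 0.08 and -0.24 ± 0.12) did not pass the threshold. The cytochrome P450 Solyc07g055440.2 had its higher root values in *sdg33*, with 0 to 4 in *sdg34* roots, 17 to 43 in *sdg33* roots and 0 to 2 in WT roots, a difference between the mutants that was not tested.

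The level of the genes in WT also differed between the organs. In WT, 61 of the 100 had every root library above every shoot library, against 18.1% of all listed genes. That base includes genes with little or no signal, and the rule itself took genes that were low in WT shoots. The median of the 100 genes was 425 in mutant roots and 201 in WT roots. In 12 genes every WT root was above even the highest mutant shoot, a count for which the share of all genes was not computed. Solyc02g071560.3, a subtilisin-like protease, was one of them, with 2250 to 4724 in WT roots, 62 to 194 in mutant shoots and 3 to 15 in WT shoots. Solyc08g078870.2 reached 17744 to 27322 in WT roots. Solyc08g079230.1, ranked 3 by gap, had 1602 to 3112 in mutant roots and 2232 to 3446 in WT roots, with changes of -0.40 ± 0.13 in *sdg34* (adjusted p = 0.023) and -0.29 ± 0.15 in *sdg33* (adjusted p = 0.12). At the other end, Solyc05g008235.1 (MYB), Solyc10g083940.1 and Solyc01g087770.3 were listed at 0 in all root libraries, and Solyc09g092110.3 had at most 2.

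**Figure D4:**
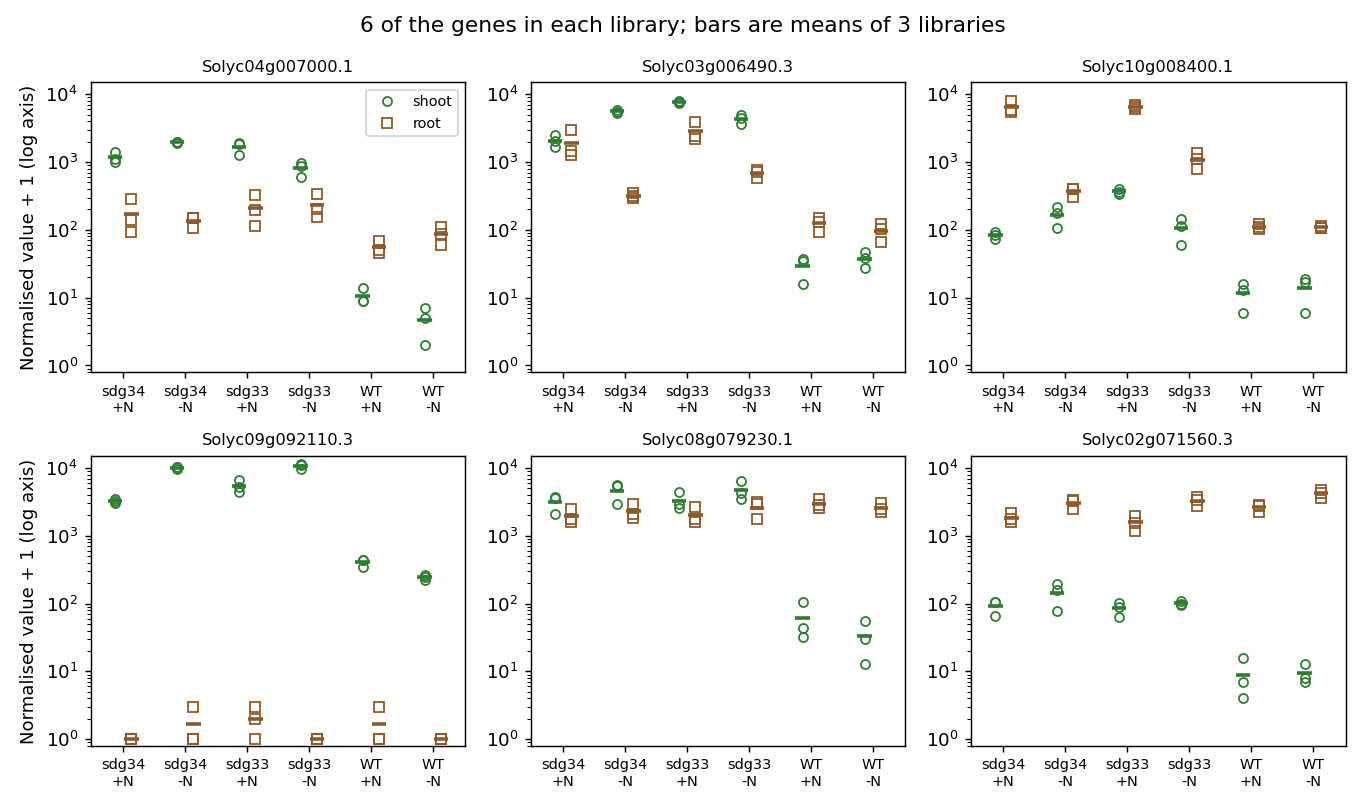
Normalised value + 1 (log axis) of 6 of the genes in each library of shoots (green circles) and roots (brown squares), with the mean of 3 libraries as a bar, for *sdg34*, *sdg33* and WT under +N and -N. Shoots of WT lie far below those of the mutants in all panels, while in roots the mutants lie above WT in Solyc10g008400.1, overlap with WT in Solyc08g079230.1, and all genotypes have at most 2 in Solyc09g092110.3.

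The N response of the 100 genes was next compared within each mutant. All 100 could be tested in shoots. The rule takes the lowest of 12 mutant libraries and so favours genes whose mutant values stay high under both N conditions. In *sdg34* shoots 35 genes were lower under +N than under -N (11% of all genes tested) and 2 were higher (11.1% of all), with a median log2 response of -0.45 (-0.04 over all genes). In *sdg33* shoots 7 were lower (13.8% of all) and 15 higher (12.7% of all), with a median of -0.06 (-0.05 over all genes). In the fit of all 18 shoot libraries, the *sdg34* count of genes lower under +N lay above its background share. There the count of 15 in *sdg33* lay near its own, and the other counts lay below theirs. The spread of the WT shoots, where these genes were chosen to be low, also entered this fit, so this placing holds for it only. Without 1 library, *sdg34* -N replicate 1, the count of 35 was 20, and without *sdg33* -N replicate 3 the count of 15 was 9. Without *sdg33* +N replicate 1 the count of 7 was 11. With the 6 libraries of *sdg33* alone in the fit, 23 were higher and 14 lower, and with those of *sdg34* alone 5 were higher. The shares of all genes in these fits were not computed.

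Without reference to a test, 58 of the 100 genes had every *sdg34* +N shoot library below every *sdg34* -N one (13.8% of all listed genes), and 5 had the opposite (12.1% of all). In *sdg33* shoots, 19 had every +N library below every -N one (14.7% of all) and 30 had the opposite (12% of all). These shares are over all 35872 listed genes, of which 12678 were at 0 in each library. All 100 genes passed the filter, so this base is not like them. Shares over the 21031 genes tested were not computed. By the test, 6 genes were lower under +N in both mutants (7.25% of all genes tested) and 2 were higher in both (8.4% of all). A further 25 were lower in *sdg34* and not past the threshold in *sdg33* (3.77% of all), and 9 were higher in *sdg33* and not past it in *sdg34* (4.31% of all). The mutants had opposite calls in 4 genes, lower in *sdg34* and higher in *sdg33*, as did 5 of all 21031 genes tested (0.0238%).

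The strongest shared fall was that of the CCR-like gene Solyc09g092110.3. It had 3008, 3290 and 3512 in *sdg34* +N shoots, against 9582, 10228 and 10402 in *sdg34* -N shoots, and 4448, 5180 and 6649 in *sdg33* +N shoots, against 9706, 11178 and 11547 in *sdg33* -N shoots. The +N and -N libraries did not overlap in either mutant, with log2 responses of -1.62 ± 0.13 (adjusted p = 1.5e-07) and -1.01 ± 0.13 (adjusted p = 1.7e-05). Solyc05g012110.3, a 6-phosphogluconolactonase of the pentose phosphate pathway, had 2305 to 2608 in *sdg34* +N shoots, against 5669 to 6400 under -N, and 3674 to 4966 in *sdg33* +N shoots, against 5879 to 6296 under -N. Its responses were -1.31 ± 0.14 (adjusted p = 2.4e-06) and -0.51 ± 0.14 (adjusted p = 0.011), and the second was not past the threshold without *sdg33* +N replicate 3.

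The xyloglucan endotransglycosylase gene Solyc09g092520.3, whose product remodels cell walls, had responses of -0.86 ± 0.23 in *sdg34* (adjusted p = 0.0097) and -1.07 ± 0.23 in *sdg33* (adjusted p = 0.0016). Solyc01g005470.3, the cadmium resistance homolog, had -1.01 ± 0.28 in *sdg34* and -0.95 ± 0.28 in *sdg33* (adjusted p = 0.013 and 0.016), and Solyc10g049970.2, a kynurenine formamidase, had -0.85 ± 0.19 in *sdg34* and -0.86 ± 0.19 in *sdg33* (adjusted p = 0.0035 and 0.0025). The methylesterase gene Solyc03g044790.3 was the other gene lower in both, with -0.81 ± 0.23 in *sdg34* and -0.84 ± 0.23 in *sdg33* (adjusted p = 0.016 and 0.0097). The *sdg34* fall of Solyc09g092520.3 and of Solyc01g005470.3 was not past the threshold without *sdg34* -N replicate 1, and the *sdg33* fall of Solyc01g005470.3 was not without any 1 of 3 *sdg33* libraries. The genes that rose in both mutants were Solyc10g083940.1 and Solyc07g047940.3. Solyc10g083940.1, a nodulin-like transporter, had 226, 235 and 288 in *sdg34* +N shoots, against 72, 81 and 97 under -N, and 194, 205 and 210 in *sdg33* +N shoots, against 72, 87 and 102 under -N. It rose by 1.57 ± 0.34 in *sdg34* (adjusted p = 0.0021) and 1.23 ± 0.34 in *sdg33* (adjusted p = 0.010). The zinc finger gene Solyc07g047940.3 rose by 0.95 ± 0.28 (adjusted p = 0.018) and 1.52 ± 0.28 (adjusted p = 0.00042), the first of which was lost without any 1 of 3 *sdg34* libraries.

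The difference between the responses was tested as an interaction over the 12 mutant shoot libraries. The rule chose the genes by the lowest value of these same libraries, so the share of all genes is not a like background. In 18 of the 100 genes the N response was lower in *sdg34* than in *sdg33* (53 genes of 20468 were, 0.259%), and in none was it higher (0.0489% of all). The median difference was -0.54 on the log2 scale over the 100 genes and 0.00 over all genes. In 15 of the 18 the response was above 0 in *sdg33* and below 0 in *sdg34*, and in 4 of these both were past the threshold. The count depended on the fit: with the 6 WT libraries added to the fit it was 1, and without any filter on low values 11. Shares of all genes in these fits were not computed. Leaving out *sdg33* -N replicate 3 gave 9, and leaving out *sdg34* -N replicate 1, *sdg34* +N replicate 1 or *sdg34* +N replicate 2 gave 10 each.

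**Figure D5:**
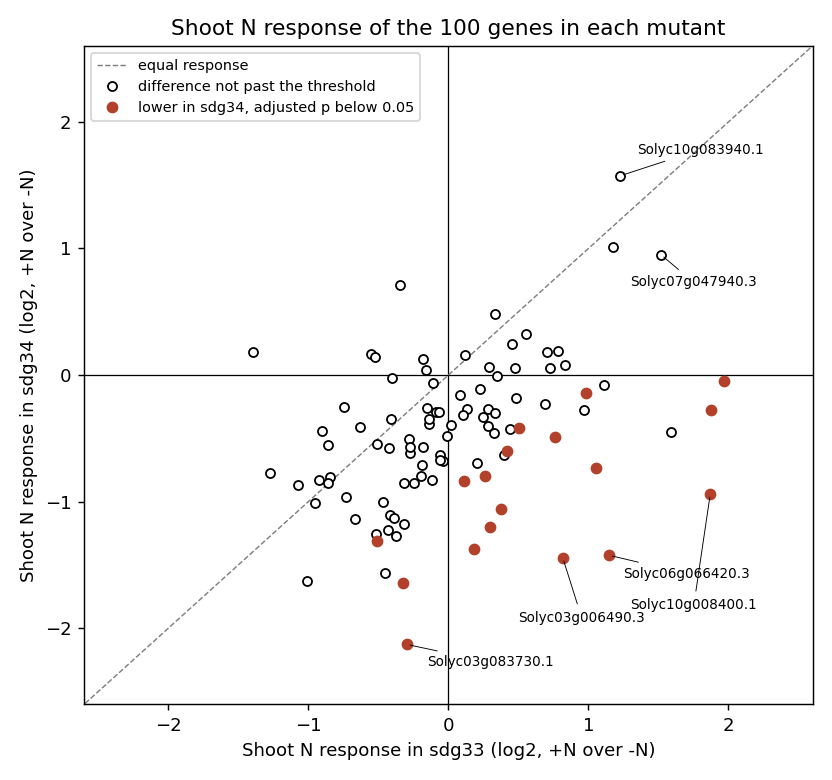
Log2 shoot N response (+N over -N) of the 100 genes in *sdg34* (y axis) and *sdg33* (x axis), with the 18 genes whose responses differed in red and the line of equal response dashed. The red genes lie below the line, 15 of them at positive values for *sdg33* and negative values for *sdg34*.

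The largest difference was that of Solyc10g008400.1, the RMA1 homolog. It had 72, 84 and 93 in *sdg34* +N shoots, against 104, 177 and 218 under -N, but 340, 358 and 404 in *sdg33* +N shoots, against 59, 114 and 146 under -N. The difference of the responses was -2.81 ± 0.41 (SE, adjusted p = 0.0066). Its WT shoots had 5 to 18. In roots its responses were 4.11 ± 0.17 in *sdg34* and 2.61 ± 0.17 in *sdg33*, both higher under +N, and 0.03 ± 0.17 in WT (adjusted p = 0.89).

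Solyc06g066420.3, the OXIDATIVE STRESS 3 homolog, had 86, 95 and 98 in *sdg34* +N shoots, against 226, 248 and 281 under -N, and 466, 558 and 730 in *sdg33* +N shoots, against 212, 270 and 304 under -N. The difference was -2.57 ± 0.25 (adjusted p = 0.00022). Solyc03g006490.3 had 1694, 2029 and 2503 in *sdg34* +N shoots, against 5329, 5450 and 5939 under -N, and 7370, 7579 and 7838 in *sdg33* +N shoots, against 3646, 4428 and 4964 under -N. The difference was -2.26 ± 0.18 (adjusted p = 3.7e-05), and it was the 1 gene that also passed with WT in the fit. In each of these 3 genes the +N and -N libraries did not overlap in either mutant, and the directions were opposite. Within each mutant, both responses passed the threshold for Solyc03g006490.3, that of *sdg33* for Solyc10g008400.1 (adjusted p = 0.13 in *sdg34*), and neither for Solyc06g066420.3 (adjusted p = 0.068 in *sdg34* and 0.13 in *sdg33*). Solyc04g007000.1, first by gap, had 1012, 1125 and 1416 in *sdg34* +N shoots, against 1922, 1955 and 1974 under -N, and 1256, 1843 and 1906 in *sdg33* +N shoots, against 592, 860 and 970 under -N, with a difference of -1.79 ± 0.26 (adjusted p = 0.0060).

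Other genes of the 18 differed mainly through 1 mutant. Solyc01g091700.3, the PP2-A13 F-box homolog, had 80, 81 and 99 in *sdg34* +N shoots, against 76, 76 and 123 under -N, and 251, 290 and 484 in *sdg33* +N shoots, against 68, 88 and 96 under -N. Solyc03g083730.1, an inhibitor of invertase or pectin methylesterase, had 295, 328 and 464 in *sdg34* +N shoots, against 1357, 1522 and 1825 under -N, and 1478 to 2400 in *sdg33* +N shoots, against 1403 to 3464 under -N. The NAC1 homolog Solyc07g066330.3 had 564, 740 and 868 in *sdg34* +N shoots, against 1924, 2374 and 2436 under -N, while its *sdg33* libraries overlapped, with 1370 to 2174 under +N and 1851 to 2282 under -N. By keyword, 4 of the 18 were ubiquitin genes, 3 were transcription factors and 3 stress genes.

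The mutants were also compared directly, over both N conditions. In shoots 36 of the 100 genes were lower in *sdg34* than in *sdg33* (8.23% of all genes tested) and 9 were higher (7.79% of all), with a median log2 difference of -0.20 (-0.01 over all genes). The rule used these shoot values and took genes whose lowest mutant library was high, which limits how far the mutants can differ. A difference of more than 1 was past the threshold in 3 genes, all lower in *sdg34*, and the share of all genes past this limit was not computed. Solyc10g017960.2, the other PP2-A13 homolog, had 68 to 140 in *sdg34* shoots and 78 to 622 in *sdg33* shoots (-1.53 ± 0.27, adjusted p = 0.0021). Solyc03g083730.1 (295 to 1825 in *sdg34*, 1403 to 3464 in *sdg33*) and Solyc06g066420.3 (86 to 281 in *sdg34*, 212 to 730 in *sdg33*) differed by -1.45 ± 0.18 and -1.33 ± 0.12 (adjusted p = 0.00029 and 3.6e-05). Solyc01g091700.3 and the RING zinc finger gene Solyc06g054540.3 followed, with -0.91 ± 0.18 and -0.88 ± 0.10.

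The genes higher in *sdg34* than in *sdg33* were led by Solyc01g059965.1, a beta-1,3-glucanase, with 81 to 140 in *sdg34* shoots and 30 to 81 in *sdg33* shoots (0.94 ± 0.19, adjusted p = 0.0052). Solyc03g121240.1, a bHLH transcription factor, and the RPT2 homolog Solyc07g043130.3 were higher by 0.70 ± 0.19 and 0.67 ± 0.09 (adjusted p = 0.019 and 0.00039). Of Solyc07g043130.3, *sdg34* shoots had 10028 to 12724 and *sdg33* shoots 6090 to 9362, with no overlap. Solyc10g006750.3, an ABC transporter gene, and Solyc12g009520.2 were higher by 0.64 ± 0.19 and 0.50 ± 0.14 (adjusted p = 0.035 and 0.021), and lost this without 1 library in 8 and 4 of 12 cases, in that order. Solyc03g121240.1 lost it without *sdg33* +N replicate 2, with a difference of 0.57 (adjusted p = 0.054). With WT in the fit, Solyc01g059965.1 had an adjusted p of 0.082 and Solyc01g091700.3, one of the genes lower in *sdg34*, of 0.13, and Solyc10g006750.3 and Solyc12g009520.2 were not past the threshold either. In that fit, 19 genes were lower and 3 higher, with no share of all genes computed. Without *sdg33* -N replicate 1 or *sdg33* +N replicate 2 the count of 9 higher genes was 5.

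In roots, 91 of the 100 genes could be tested for an N response. In *sdg34* roots 36 were higher under +N (25.7% of all genes tested) and 19 lower (27.1% of all). In *sdg33* roots 33 were higher (20.7% of all) and 16 lower (23.2% of all). In WT roots 16 were higher (21.8% of all) and 24 lower (22.1% of all). Past the threshold in both mutants, 30 genes were higher (17.5% of all genes tested) and 15 lower (19.4% of all), and 0 had opposite calls (0.0435% of all). Of the 30, 9 were also higher in WT (12.7% of all tested were higher in all 3 genotypes), 18 were not past the threshold in WT (4.46% of all) and 3 were lower in WT (0.334% of all).

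The largest of these root responses, named after the values were seen, was that of Solyc02g078500.2, the second AT4G27450 homolog. It had 1876, 1934 and 3794 in *sdg34* +N roots, against 94, 130 and 152 under -N, 2780, 2973 and 4761 in *sdg33* +N roots, against 368, 396 and 445 under -N, and 242, 255 and 354 in WT +N roots, against 84, 128 and 130 under -N. All genotypes had higher values under +N, with log2 responses of 4.27 ± 0.26 in *sdg34*, 3.08 ± 0.26 in *sdg33* and 1.31 ± 0.26 in WT. In shoots the same gene had 59 to 108 in *sdg34*, 88 to 229 in *sdg33* and 4 to 18 in WT.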

How the data were processed

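Genotype, organ and N supply of the 36 RNA-Seq libraries were taken from their labels. The authors mapped reads with BBmap to the tomato genome and counted them per gene model and miRNA locus with featureCounts. The deposited values are scores: the authors full-quantile normalised the gene counts over all libraries and rounded them, so that every library holds the same sorted values with 12678 zeros. Real differences in total RNA between organs or genotypes are removed by this step, values of 0 or 1 depend on ties, and depth is unknown, so that precision comes from replicates only.

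A pseudocount of 1 was added before taking log2, and limma 3.58.1 (R 4.3.3; lmFit, then eBayes with a trend) was fitted to genes that reached 10 in 3 or more of the libraries used, with Benjamini-Hochberg adjustment over all genes tested and a threshold of 0.05. Fold changes understate low genes. Shares of all listed genes, unlike shares of genes tested, count genes with little or no signal. Root genotype effects used the 12 libraries of a mutant and WT, N responses the 18 libraries of an organ, and mutant differences the 12 mutant shoot libraries. The steps were tested on simulated data.

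The members and lists were chosen with earlier results of these data known. Named genes were the 15 of largest gap, the 5 on each side of the limit, members of runs, the largest changes past the threshold in each test (root genotype 6 per direction, N response 5, mutant difference 5, difference in N response 3), the 2 of largest gap in each keyword family, genes shared with the root list, and SDG33 and SDG34. Other genes named are examples chosen after their values were seen. Descriptions and Arabidopsis homologs came from the study's lists of differentially expressed genes, which do not describe every listed gene. For the tests, the pseudocount, the filter, a rescaling, the libraries in the fit, a fold limit, a replicate block and each library left out were varied, and for root genotype effects also the N condition. For the choice of genes, the pseudocount, a rescaling and each library left out were varied, and for the runs the number of places. Alternatives for single genes were computed for those the rule took from the tests. No sequences were used here.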

Additional observations from a re-analysis of the deposited data

Results flagged for a closer look

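The shoot N response differed between the mutants, by the test of the interaction, in 18 of the 100 genes, all lower in *sdg34* than in *sdg33*. The rule chose the genes by the lowest value of these same 12 mutant libraries, so all genes are not a like background. The count was 1 with the WT libraries in the fit and 11 without a filter on low values. Leaving out 1 library took it as low as 9. Among the 18, the 3 largest differences were those of Solyc10g008400.1 (-2.81 on the log2 scale), Solyc06g066420.3 (-2.57) and Solyc03g006490.3 (-2.26). In these 3 genes all 3 *sdg34* libraries were lower under +N than under -N and all 3 *sdg33* libraries were higher. The *sdg34* and *sdg33* plants are 1 line each, and whether the difference belongs to the gene or to the line cannot be told apart. No other result met a rule for a closer look, and groups of 3 libraries are too small for a test of single outlying libraries.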

How the results depend on the processing

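The choice of genes moved little: 89 of the 100 were taken with a pseudocount of 10, 99 after rescaling by median of ratios, and between 84 and 100 without 1 library, the fewest without WT -N replicate 1. With a limit of 1 place, 3 runs were found in place of 7. The root counts stayed within 1.5 times under all alternatives apart from a stricter fold. With an absolute log2 fold change over 2, 16 genes were higher and 0 lower in *sdg33* roots, and 11 higher and 0 lower in *sdg34* roots. With a log2 response over 1, 15, 20 and 5 genes were higher and 2, 4 and 6 lower under +N in *sdg33*, *sdg34* and WT roots. The same limit left 6 higher and 3 lower in *sdg33* shoots and 1 higher and 16 lower in *sdg34* shoots, and in the direct comparison of the mutants 0 higher and 3 lower. With the 6 libraries of 1 genotype, the shoot counts were 23 higher and 14 lower in *sdg33* and 5 higher in *sdg34*. A pseudocount of 10 gave 11 lower in *sdg33* shoots, and a filter of 10 in all libraries of the fit gave 1 higher in *sdg34* shoots. With 18 libraries in 1 fit, the mutants differed in 3 genes higher and 19 lower in *sdg34*, and their N responses in 1, and without a filter on low values in 11. Why these fits differ was not tested. Shares of all genes under the alternatives were computed only for the limit of the root genotype effects. The other counts therefore show only how far a count moved.

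Without 1 library, the shoot counts ranged from 9 to 18 (higher) and 5 to 11 (lower) in *sdg33*, from 1 to 2 and 20 to 39 in *sdg34*, from 5 to 12 and 29 to 42 for the direct comparison, and from 9 to 20 for the lower N responses of *sdg34*. Deviations of same-numbered libraries had a median correlation of 0.04 in roots and -0.01 in shoots, beside -0.02 and 0.004 for libraries of other numbers. Above 0.1 were 7 of 45 same-numbered root pairs and 5 of 45 shoot pairs, beside 7 of 90 and 11 of 90 other pairs. Same-numbered root libraries were thus slightly more alike than others, and whether the numbers mark a batch was not tested. With a replicate block, counts stayed within 1.5 times in every test, for instance 34 lower in *sdg34* shoots and 16 lower N responses in *sdg34*. Of 1095 values of named genes under an alternative, 1059 stayed past the threshold, 36 did not and 0 changed direction. These genes were named for large changes past the threshold in the main fit, so most were likely to stay past it. Fold limits, and fits in which a gene could not be tested, are not among the 1095. Depth is unknown, each mutant is 1 line, and shoot values of WT near 0 carry large relative error.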
